A study of Homo sapiens with 16 samples.

Results

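Gut mesenchyme transcription factors are described here in bulk RNA-seq libraries of the human colon fibroblast line Ccd18-Co. The set was chosen by symbol and holds 10 factors, TWIST1, TWIST2, PRRX1, SNAI1, SNAI2, FOXF1, FOXF2, NKX2-3, ZEB1 and ZEB2, of the 40663 gene symbols in the table. Of these, 9 had a row and 9 were tested in every comparison, and FOXF2 was not analysed here.

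These factors belong to several families. TWIST1 and TWIST2 are basic helix-loop-helix (bHLH) proteins that bind DNA as dimers with E proteins, and ID proteins capture the E proteins and so keep such dimers off DNA. PRRX1 is a paired-type homeobox factor of mesenchymal cells, and SNAI1, SNAI2, ZEB1 and ZEB2 are zinc finger repressors known for silencing epithelial genes such as CDH1. FOXF1, a forkhead factor, and NKX2-3, a homeobox factor, are known for the development of the mesenchyme of the gut wall.

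The 16 libraries fell into 4 groups of 4. Unstimulated cells (replicates 1 to 4) received no cytokines and, per their titles, the solvent DMSO. Their data columns carry the word none instead. If the columns are right, comparisons with unstimulated cells also differ in solvent, whose part cannot be told apart from that of the cytokines. The other groups received repeated pulses of cytokines, each pulse 72 h long and followed by recovery for 96 h. The mix held IL-1B at 0.1 ng/ml and, at 10 ng/ml, TNF, OSM and IL-17A. Then, with 1 week of rest in between, these cultures were given DMSO (vehicle, replicates 13 to 16), 250 nM belinostat, a histone deacetylase inhibitor (replicates 17 to 20), or 10 µM GSK-J4, an inhibitor of H3K27 demethylases (replicates 21 to 24), for 5 days. RNA was taken 2 weeks later, so the comparisons ask what persisted in a single line after cytokines and compounds were removed. Nothing in the labels ties a library to a separate experiment, so p-values measure the spread between these libraries, which may be technical.

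Each library held 14.42 to 19.48 M estimated counts (M, counts in units of 1e6). All 8 fibroblast markers exceeded a mean of 50 normalized counts in every group. Of 7 epithelial markers none did so in any group, and KRT20, CD3E (T cells) and SOX10 (glia) were at 0 in every library. Of 6 immune markers 1 exceeded a mean of 50 normalized counts over the 16 libraries, CD68, with group means of 256.9 to 301.1. Of 6 endothelial markers 1 did so, TEK, with group means of 7582 to 9322, and VWF, the next highest, averaged at most 31.78 in any group. Belinostat replicate 17 stood apart from its group in 6.31% of 11741 genes, against 0.528% to 2.95% for the other libraries. For the quoted differences of the factors, values without it are given where a call changed or the value moved by over 1.5 times. In bulk RNA, fewer cells of a type and less RNA per cell cannot be told apart.

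The sequence upstream of the gene is shown for TWIST2, which passed the test in 3 comparisons, and for NKX2-3, which passed it in none. RefSeq windows (GRCh38) reached 250 bases upstream of a start and existed for 5 of the 10 factors. Those of PRRX1 and ZEB2 had 0 bases before every GENCODE start of the gene and are not printed. The window of ZEB1 was left out. The sequences are trimmed to the bases before every GENCODE start of the gene, both lie on the plus strand, and capitals mark a CCAAT box (CCAAT on either strand).
TWIST2 (chr2:238847835-238848031): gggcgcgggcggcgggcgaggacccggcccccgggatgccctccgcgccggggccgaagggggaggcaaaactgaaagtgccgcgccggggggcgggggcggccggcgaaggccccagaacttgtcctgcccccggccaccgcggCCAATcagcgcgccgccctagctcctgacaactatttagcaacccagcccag
NKX2-3 (chr10:99532692-99532941): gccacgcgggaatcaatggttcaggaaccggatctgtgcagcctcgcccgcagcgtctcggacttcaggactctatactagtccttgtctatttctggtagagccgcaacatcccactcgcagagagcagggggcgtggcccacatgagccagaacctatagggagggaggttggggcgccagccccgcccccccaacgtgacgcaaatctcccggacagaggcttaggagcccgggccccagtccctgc
The untrimmed window of TWIST2 held 26 CG dinucleotides and that of NKX2-3 held 16, against a median of 11 over 35116 windows. A CCAAT box occurred once in the TWIST2 window, not in that of NKX2-3, and in 32% of all windows. The PRRX1 window held 6 CG dinucleotides and 2 CCAAT boxes, and the ZEB2 window 12 and 0. The bHLH site CANNTG, the E-box, occurred once in the NKX2-3 window, not in that of TWIST2, and in 61.8% of all windows. The ZEB and SNAIL site CACCTG was in neither window and in 17.5% of all windows.

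The factors were present at unequal levels. As normalized counts per kilobase of the canonical transcript, averaged over the 16 libraries, FOXF1 stood highest at 1790, followed by SNAI2 at 1130, ZEB1 at 676, NKX2-3 at 544, ZEB2 at 415, TWIST2 at 358, TWIST1 at 212, PRRX1 at 103 and SNAI1 at 30.3. FOXF1 was highest and SNAI1 lowest in each group too, with group means of 1730 to 1910 for FOXF1 and 26.8 to 33.7 for SNAI1. The middle of this order was not resolved beyond the spread of the libraries. Over the 16 libraries ZEB1 ran from 557 to 777 per kilobase, NKX2-3 from 388 to 772, ZEB2 from 346 to 452 and TWIST2 from 235 to 451.

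**Figure D1:**
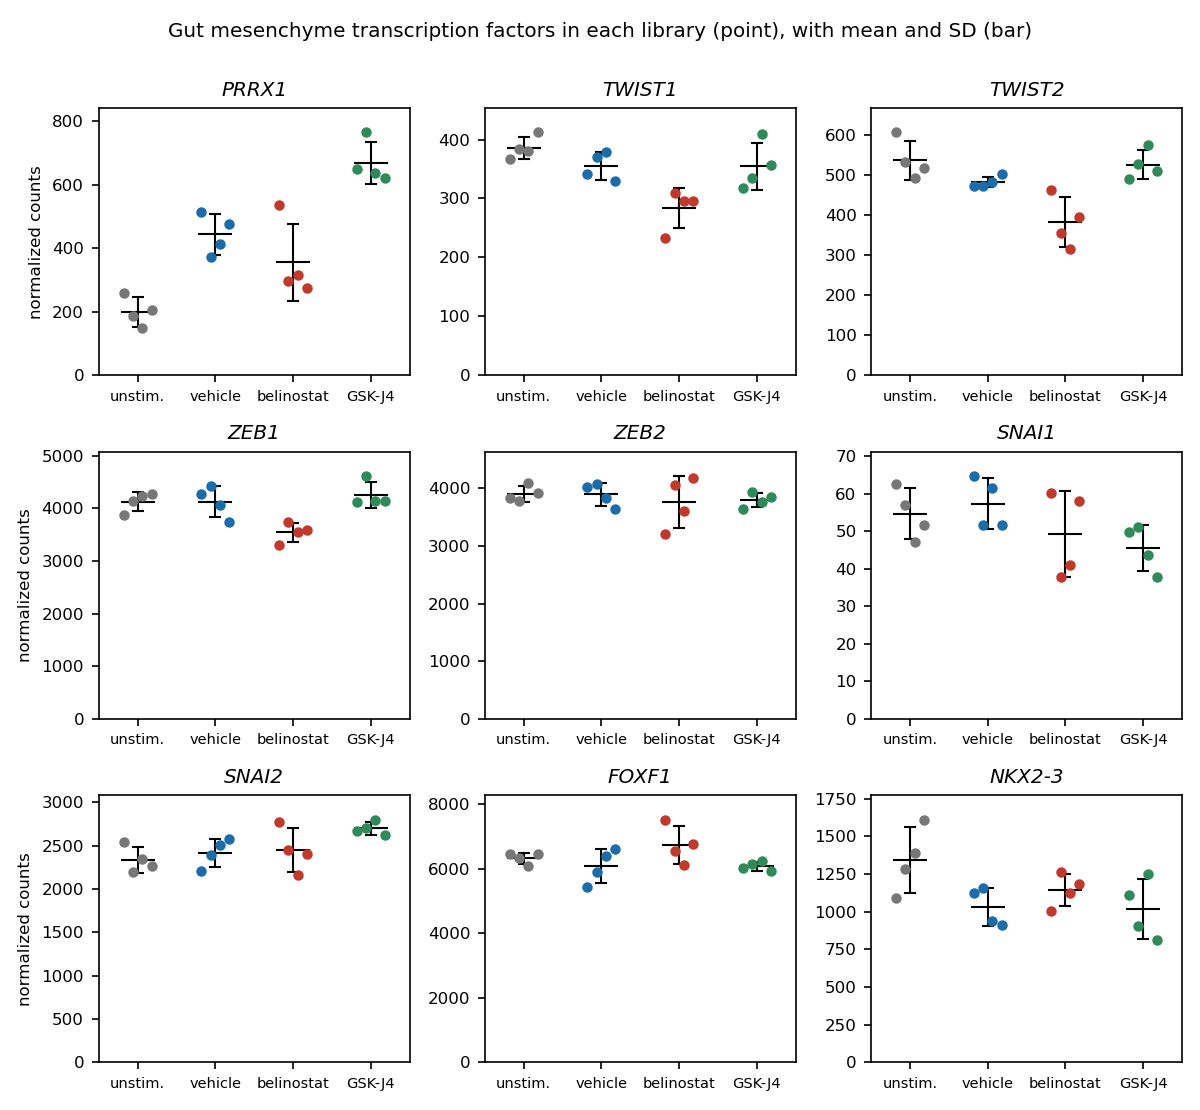
Normalized counts (vertical axes, starting at 0) of the 9 factors in the 4 groups (horizontal axes). Each point is 1 library, in order of replicate number from left to right, and bars give the mean and SD of 4 libraries. PRRX1 separates the groups most widely, from 148.3 in an unstimulated library to 764.9 in a GSK-J4 library, whereas ZEB2 group means stay between 3766 and 3908.

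Vehicle libraries were compared with unstimulated ones to ask which factors kept a changed level after the cytokine pulses. Of the 9 factors 1 was called at a DESeq2 adjusted p under 0.05, against a background of 1.74% of all genes tested. That factor was PRRX1 (ENSG00000116132.12, chromosome 1, 170662728 to 170739421 on GRCh38). Its normalized counts were 258.6, 185.2, 148.3 and 206 in unstimulated replicates 1 to 4 and 513, 371.8, 412.6 and 477.6 in vehicle replicates 13 to 16. The lowest vehicle library lay above the highest unstimulated library. The fitted log2 fold change was 1.15 (SE 0.19), a 2.23-fold rise (95% interval 1.71 to 2.89, adjusted p 1.11e-06). The call was kept in all 15 alternative fits. The summed level of 5 pericyte markers was 1198 to 1320 normalized counts in unstimulated and 1405 to 1730 in vehicle libraries, with 1 marker called higher, RGS5. RGS5 averaged 214.9 in unstimulated and 385 in vehicle libraries, and CSPG4 342.4 and 495.8. NOTCH3 went the other way, at 681.2 and 637.8, as did KCNJ8 near 0, and ABCC9 stood at 22.83 and 24.67. The part of these markers in the PRRX1 result was not tested. The median log2 fold change of the 9 factors was -0.004, beside -0.005 over all genes tested.

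No other factor passed the test after the pulses. NKX2-3 averaged 1344 normalized counts ± 217 (SD, n = 4) in unstimulated and 1033 ± 127 in vehicle libraries, a log2 difference of -0.38 (SE 0.14) with an adjusted p of 0.177. Its groups overlapped, since unstimulated replicate 1 read 1089 and vehicle replicates 13 and 14 read 1124 and 1160. Without unstimulated replicate 1 the NKX2-3 difference was -0.47 and was called (DESeq2 adjusted p 0.0386, with 0.0386 to 0.634 over the 15 alternatives). TWIST1 (-0.12, 95% interval -0.31 to 0.07) and TWIST2 (-0.15, 95% interval -0.35 to 0.04) had lower means after the pulses, neither past the test. ZEB1 and ZEB2 had differences of -0.001 and -0.004 with 95% intervals of -0.12 to 0.12 and -0.14 to 0.14. SNAI1, SNAI2 and FOXF1 differed by 0.07, 0.05 and -0.06.

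**Figure D2:**
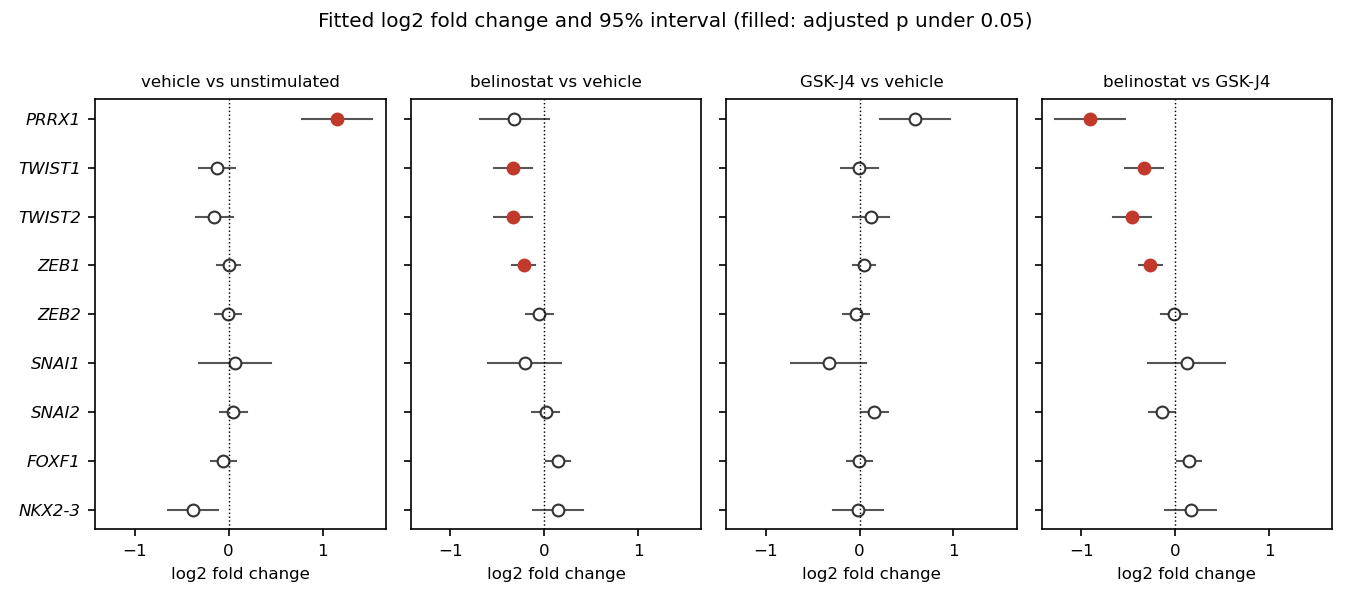
Fitted log2 fold change (horizontal axes) of each factor (vertical axis) in 4 comparisons, with 95% intervals as lines. Filled points have a DESeq2 adjusted p under 0.05. PRRX1 is the filled point at 1.15 in the left panel, and TWIST1, TWIST2 and ZEB1 are filled below 0 both for belinostat against vehicle and for belinostat against GSK-J4.

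PRRX1 stood highest in the pulsed cells that had received GSK-J4. Its normalized counts there were 650.9, 764.9, 638 and 621.5, all above the highest vehicle library at 513. Against vehicle this was a log2 difference of 0.59 (SE 0.19, 1.51-fold, 95% interval 1.17 to 1.95), which was not called (DESeq2 adjusted p 0.0714) and was called at 6.43e-06 when only these 8 libraries were fitted. Over the 15 alternatives the adjusted p ran from 6.43e-06 to 0.361. Against unstimulated cells PRRX1 rose 3.35-fold (95% interval 2.59 to 4.35, adjusted p 5.88e-17), again called in all 15 alternatives. In that comparison PRRX1 was the 1 factor of 9 called, against 5.55% of all genes tested. The summed level of 6 smooth muscle markers was 9184 to 13900 normalized counts in unstimulated, 10830 to 11900 in vehicle and 16990 to 17460 in GSK-J4 libraries. That of the 5 pericyte markers was 1405 to 1730 with vehicle and 2204 to 2410 with GSK-J4. Of the smooth muscle markers 5 of 6 exceeded 50 normalized counts and 4 were called higher with GSK-J4 than with vehicle, among them MYH11 (1707 to 3674), while DES averaged at most 1.542 in any group. The smooth muscle marker SYNM went the other way, at 449.4 with vehicle and 416.9 with GSK-J4. Of the pericyte markers 2 of 5 were called higher, while ABCC9 averaged 24.67 with vehicle and 22.36 with GSK-J4. The part of either marker set in the PRRX1 result was not tested.

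The belinostat libraries divided on PRRX1. Replicate 17 read 536.5 normalized counts, above every vehicle library, and replicates 18 to 20 read 297.9, 315 and 275.1, below every vehicle library. The fitted difference from vehicle was -0.32 (SE 0.19, adjusted p 0.454), and without replicate 17 it was -0.58 and called (adjusted p 0.00227, with 0.00227 to 0.782 over the 15 alternatives). All 4 belinostat libraries lay above the highest unstimulated library, with a 1.79-fold higher fitted level (95% interval 1.38 to 2.33, DESeq2 adjusted p 0.000443). PRRX1 thus rose against unstimulated cells in each of the 3 pulsed groups. These comparisons share the unstimulated libraries.

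Several factors of the set were lower after belinostat. Against vehicle, 3 of the 9 factors were called, all lower, namely TWIST1, TWIST2 and ZEB1, where 6.26% of all genes tested were called in either direction. The median log2 fold change of the 9 factors was -0.208, beside 0.003 over all genes tested. This median is the value of SNAI1, which was not called (SE 0.20, DESeq2 adjusted p 0.722). SNAI2, FOXF1 and NKX2-3 had differences above 0. The calls of TWIST1, TWIST2 and ZEB1 each depended on the fit, as given for each below. The count of called factors was 1 with edgeR and 0 without vehicle replicate 14. Without belinostat replicate 17 it was again 3, made up of TWIST2, ZEB1 and PRRX1. Sums over marker sets differed with belinostat as well. The summed level of the 6 smooth muscle markers was 6588 to 9567 normalized counts with belinostat, below the 10830 to 11900 of vehicle, with 1 marker called lower. Most of that drop lay in ACTG2, which averaged 6402 with vehicle and 4146 with belinostat. SYNM went the other way, at 449.4 and 522.1. The 8 fibroblast markers summed to 419100 to 498900 with belinostat and 488700 to 520300 with vehicle, with 2 called lower. The 6 endothelial markers summed to 8604 to 10170 with belinostat and 7707 to 8855 with vehicle, with 1 called higher. The endothelial sum was nearly all TEK, at 9322 normalized counts with belinostat and 8224 with vehicle. The part of these markers in the results for the factors was not tested.

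TWIST1 (ENSG00000122691.13, chromosome 7, 19020991 to 19117636) read 341.7, 369.9, 379.1 and 330.1 normalized counts in the vehicle libraries and 232.9, 308.9, 295.6 and 295.9 in the belinostat libraries. The groups did not overlap, and replicate 17 was the lowest library. It fell by 0.33 on the log2 scale (SE 0.10, 0.796-fold, adjusted p 0.0231). The call held in 10 of 15 alternatives (adjusted p 0.0188 to 0.118), and without replicate 17 the difference was -0.24 with an adjusted p of 0.118. Without vehicle replicate 14 (adjusted p 0.0973) or 15 (adjusted p 0.105) it was also lost. Against unstimulated libraries, which read 367.7 to 412, TWIST1 fell by 0.45 (adjusted p 0.000278), called in all 15 alternatives.

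TWIST2 (ENSG00000233608.5, chromosome 2, 238848032 to 238910534) read 472.1, 472.4, 482.5 and 500.7 normalized counts with vehicle and 461.1, 355.3, 315 and 394.6 with belinostat. All belinostat libraries lay below all vehicle libraries, and here replicate 17 was the highest of its group. The fall was 0.33 on the log2 scale (SE 0.10, 0.793-fold, adjusted p 0.022). It was called in 6 of 15 alternatives (adjusted p 0.000148 to 0.126). The largest p came without belinostat replicate 19, and leaving out belinostat replicate 18 or any single vehicle library also lost the call, with adjusted p of 0.0527 to 0.101. Against unstimulated libraries, at 491.8 to 605.1, the fall of 0.49 (adjusted p 7.32e-05) was called in all 15.

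ZEB1 (ENSG00000148516.23, chromosome 10, 31318495 to 31529814) read 4274, 4420, 4068 and 3735 normalized counts with vehicle and 3308, 3740, 3541 and 3590 with belinostat. The groups overlapped at a single pair, belinostat replicate 18 at 3740 and vehicle replicate 16 at 3735. ZEB1 fell by 0.22 on the log2 scale (SE 0.06, 0.859-fold, adjusted p 0.00791), a smaller fold than that of TWIST1 or TWIST2 with a smaller error. The call held in 13 of 15 alternatives (adjusted p 0.000415 to 0.0659) and was lost without vehicle replicate 13 (adjusted p 0.055) or 14 (adjusted p 0.0659). Unstimulated libraries read 3873 to 4270, and ZEB1 fell by 0.22 against them (adjusted p 0.0051), in all 15 alternatives too.

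Belinostat against unstimulated cells therefore gave 4 called factors of 9, PRRX1 higher and TWIST1, TWIST2 and ZEB1 lower, against 10.3% of all genes tested. This count was 4 in each of the 8 fits that left out a library.

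With GSK-J4 against vehicle, none of the 9 factors was called by DESeq2, edgeR or limma voom, where 1.92% of all genes tested were called by DESeq2, and 2 factors, PRRX1 and SNAI2, had an unadjusted p under 0.05. TWIST1 was at 354.5 ± 40 normalized counts with GSK-J4 and 355.2 ± 23.1 with vehicle (SD, n = 4), a log2 difference of -0.003 with a 95% interval of -0.20 to 0.19. TWIST2 differed by 0.12 (95% interval -0.07 to 0.32) and ZEB1 by 0.04 (95% interval -0.07 to 0.16). SNAI2 lay higher in all 4 GSK-J4 libraries, at 2624 to 2798 normalized counts, than in any vehicle library, at 2203 to 2574. Its log2 difference of 0.16 (SE 0.07) was not called (DESeq2 adjusted p 0.382). SNAI1, the factor with the fewest counts, had a difference of -0.33 with a wide interval, -0.73 to 0.07. Its GSK-J4 libraries, at 37.73 to 51.2 normalized counts, all lay below its vehicle libraries, at 51.64 to 64.72.

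Tested directly against GSK-J4, belinostat left 4 of 9 factors lower and none higher, against 12.2% of all genes tested. PRRX1 fell by 0.91 on the log2 scale (SE 0.19, adjusted p 4.62e-05), TWIST2 by 0.46 (SE 0.10, adjusted p 0.000194), TWIST1 by 0.33 (SE 0.10, adjusted p 0.0157) and ZEB1 by 0.26 (SE 0.06, adjusted p 0.000305). For all 4 the belinostat libraries lay below every GSK-J4 library. The share of all genes whose groups separate in this way was not counted. The calls of PRRX1, TWIST2 and ZEB1 held in all 15 alternatives. That of TWIST1 was lost in a fit of only these 8 libraries (adjusted p 0.0689), without belinostat replicate 17 (adjusted p 0.0859) and without GSK-J4 replicate 23 (adjusted p 0.116). Each compound was given at 1 dose, so the doses are not matched for effect.

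ZEB2, the paralog of ZEB1, was called in no comparison. Its group means were 3908 ± 140 in unstimulated, 3898 ± 204 in vehicle, 3766 ± 449 in belinostat and 3797 ± 123 in GSK-J4 libraries (SD, n = 4). Its 6 log2 differences lay between -0.054 and -0.004, with 95% intervals that reached from -0.19 at the lowest to 0.14 at the highest. The ratio of ZEB1 to ZEB2 counts, which needs no scaling between libraries, was 1.01 to 1.1 in unstimulated, 1.03 to 1.08 in vehicle, 0.857 to 1.03 in belinostat and 1.08 to 1.17 in GSK-J4 libraries. Whether ZEB1 and ZEB2 changed unequally was not tested. TWIST1 to TWIST2 ratios spread most in belinostat, from 0.505 in replicate 17 to 0.938, because TWIST1 was lowest and TWIST2 highest in that library.

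**Figure D3:**
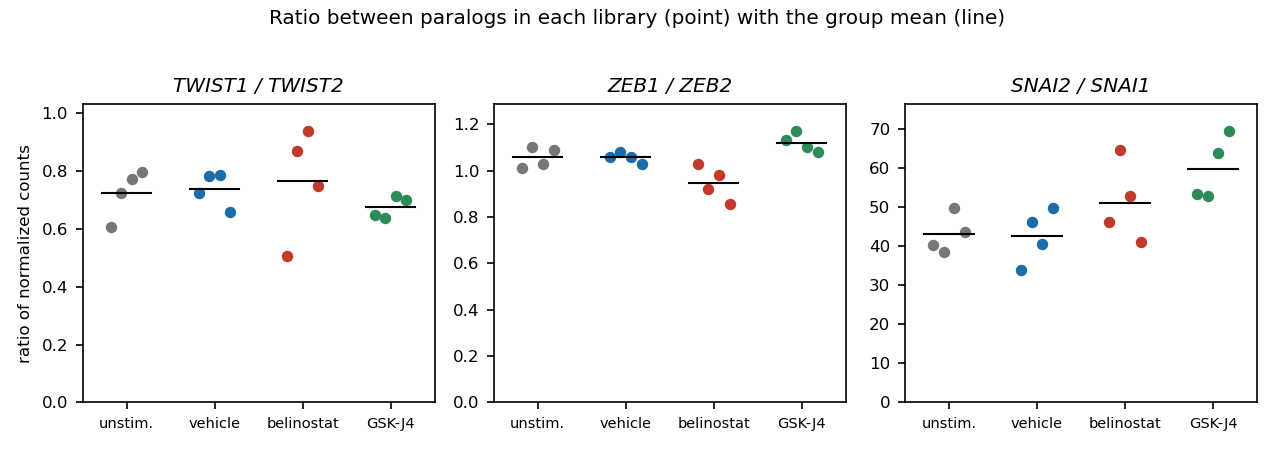
Ratio of normalized counts between paralogs (vertical axes, starting at 0) in each library (points) of the 4 groups (horizontal axes), with the group mean as a line. ZEB1 to ZEB2 has its lowest mean, 0.948, with belinostat and its highest, 1.12, with GSK-J4, and the lowest TWIST1 to TWIST2 ratio, 0.505, is that of belinostat replicate 17.

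Of the SNAIL pair, SNAI2 exceeded SNAI1 in raw normalized counts by a mean ratio of 43.1 in unstimulated, 42.7 in vehicle, 51.2 in belinostat and 60 in GSK-J4 libraries. The ratio takes no account of transcript length. SNAI1 ranged from 37.73 to 64.72 normalized counts over the 16 libraries and was called in no comparison. With belinostat against vehicle its log2 difference was -0.21 (SE 0.20, DESeq2 adjusted p 0.722), and -0.32 without belinostat replicate 17. SNAI2 was not called either. Its largest difference was 0.21 (SE 0.07) between GSK-J4 and unstimulated cells, with an adjusted p of 0.0629 that fell to 0.0087 when only those 8 libraries were fitted and to 0.0174 without unstimulated replicate 1, the largest of the 15 alternatives being 0.235. SNAI2 was also called lower with belinostat than with GSK-J4 once belinostat replicate 17 was left out (-0.21, adjusted p 0.0142), against -0.14 (adjusted p 0.224) with it.

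The gut wall factors FOXF1 and NKX2-3 were likewise called nowhere in the fit of all libraries. FOXF1 ran from 5420 to 7516 normalized counts, in vehicle replicate 13 and belinostat replicate 17. With belinostat its mean was 6732 ± 589 against 6082 ± 531 with vehicle (SD, n = 4), a log2 difference of 0.15 (95% interval 0.02 to 0.28, adjusted p 0.22), which was 0.09 without belinostat replicate 17. Against GSK-J4 the difference was 0.15 (adjusted p 0.139), called only without belinostat replicate 19 (0.19, adjusted p 0.0417). Without belinostat replicate 17 the difference from GSK-J4 was 0.09. With belinostat against vehicle, FENDRR, the long noncoding RNA beside FOXF1 on the opposite strand, rose by 0.22 (SE 0.05, adjusted p 0.000808), from 8289 ± 196 to 9633 ± 662. The preparation named in the labels is not stated to keep strand, and whether reads of FENDRR and FOXF1 could be mixed was not tested. NKX2-3 stood lower with GSK-J4 than in unstimulated cells by 0.40 (SE 0.14), with an adjusted p of 0.0613 that fell to 0.0105 without unstimulated replicate 1 and to 0.00714 without GSK-J4 replicate 23, and the alternatives reached 0.306 at the highest.

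Genes known to act with the factors were followed by lists, whose counts stand against the same backgrounds of 6.26% for belinostat against vehicle, 1.92% for GSK-J4 against vehicle and 1.74% after the pulses. Of 12 bHLH partners and ID inhibitors, 11 were tested for belinostat against vehicle, with 3 higher, 1 lower and a median log2 fold change of 0.058. The 3 that rose were the inhibitors ID2 (0.81, SE 0.12), ID1 (0.67, SE 0.18) and ID3 (0.47, SE 0.10). MSC, a bHLH repressor gene, fell by 0.45 (SE 0.07). ID2 went from 412.5 ± 49.7 to 722.3 ± 119 normalized counts. GSK-J4 against vehicle gave 2 lower, ID3 (-0.45, SE 0.10) and the E protein gene TCF4 (-0.29, SE 0.07), and none higher. Between belinostat and GSK-J4 the log2 differences were 1.197 for ID1, 1.156 for ID2 and 0.92 for ID3, each called. Vehicle against unstimulated gave 1 higher, the E protein gene TCF12 (0.17, SE 0.04), called in 12 of 15 alternatives (adjusted p 0.00158 to 0.0733).

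PRRX2, the paralog of PRRX1, led the list of 34 other mesenchyme factors, of which 26 were tested with belinostat against vehicle, 2 rising and 2 falling. PRRX2 went from 325.6 ± 33.8 with vehicle to 514.7 ± 106 normalized counts with belinostat (log2 0.66, SE 0.14, adjusted p 8.51e-05), called in all 15 alternatives. It was at 325.4 ± 33.2 with GSK-J4, where PRRX1 was highest. In unstimulated libraries PRRX2 averaged 394.3 ± 45. Belinostat against unstimulated gave 0.39 (SE 0.14, DESeq2 adjusted p 0.0459), called in 4 of 15 alternatives and 0.26 without belinostat replicate 17. NR2F1, a nuclear receptor gene, fell by 0.66 (SE 0.08) with belinostat and its relative NR2F2 by 0.18 (SE 0.05), and TBX3, a T-box factor gene, rose by 0.53 (SE 0.08). GSK-J4 raised 1 factor of 25 tested, PBX3 (0.53, SE 0.12), a homeobox partner of HOX proteins. After the pulses 1 of 26 was called, FOXP2, a forkhead gene at 0.9354 ± 0.727 normalized counts in unstimulated and 11.74 ± 4.29 in vehicle libraries (adjusted p 0.00264).

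Of 15 corepressors that SNAIL and ZEB proteins recruit, none was called by DESeq2, edgeR or limma voom after the pulses, with belinostat or with GSK-J4 against vehicle, and 1, 0 and 4 had an unadjusted p under 0.05. AJUBA, a LIM protein gene, was the exception in other comparisons, lower with GSK-J4 than in unstimulated cells (-0.29, SE 0.09) and higher with belinostat than with GSK-J4 (0.27, SE 0.09). The first call held in 12 of 15 alternatives (adjusted p 0.00179 to 0.095) and the second in 11 of 15 (adjusted p 3.18e-05 to 0.104).

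Epithelial genes that these repressors silence were largely near the detection floor, and 11 of 24 were tested for belinostat against vehicle. KRT18 rose by 0.84 (SE 0.16) and KRT8 by 0.36 (SE 0.08), keratin genes of simple epithelia, and JUP, a junction plaque gene, fell by 0.31 (SE 0.10, called in 6 of 15 alternatives, adjusted p 0.00166 to 0.206, and a difference of -0.18 without vehicle replicate 16). KRT18 went from 1339 ± 169 to 2395 ± 663 normalized counts. CDH1, the classical target, averaged 4.706 ± 4.47 normalized counts with vehicle and 10.65 ± 2.65 with belinostat and was too low to be tested in that comparison. The summed level of the 7 epithelial markers was 28.05 to 33.23 normalized counts with belinostat and 11.5 to 27.6 with vehicle, and its part in the keratin change was not tested. No epithelial gene of the list was called by any of the 3 tools with GSK-J4 against vehicle or after the pulses, with 0 and 1 at an unadjusted p under 0.05.

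Of 18 mesenchymal genes, belinostat against vehicle raised 1 and lowered 6, against 6.26% of all genes tested, with a median of -0.15 beside 0.003 for all genes. CDH11 (cadherin 11) fell by 0.43 (SE 0.08) and FN1 (fibronectin) by 0.34 (SE 0.06), while CDH2 (N-cadherin) rose by 0.47 (SE 0.11). With edgeR the count was 4 of 18. GSK-J4 against vehicle raised 3 and lowered none, FN1 (0.29, SE 0.06), COL3A1 (0.22, SE 0.06) and COL1A2 (0.22, SE 0.04), where 1.92% of all genes tested were called, and edgeR called 1. COL3A1 was called in 8 of 15 alternatives (adjusted p 0.0007 to 0.171) and COL1A2 in 13 of 15 (highest adjusted p 0.0696). In the direct comparison 9 were lower and 1 higher with belinostat than with GSK-J4, against 12.2% of all genes tested. FN1 showed this in every library, with 36080 to 37680 normalized counts for belinostat and 53230 to 60230 for GSK-J4.

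**Figure D4:**
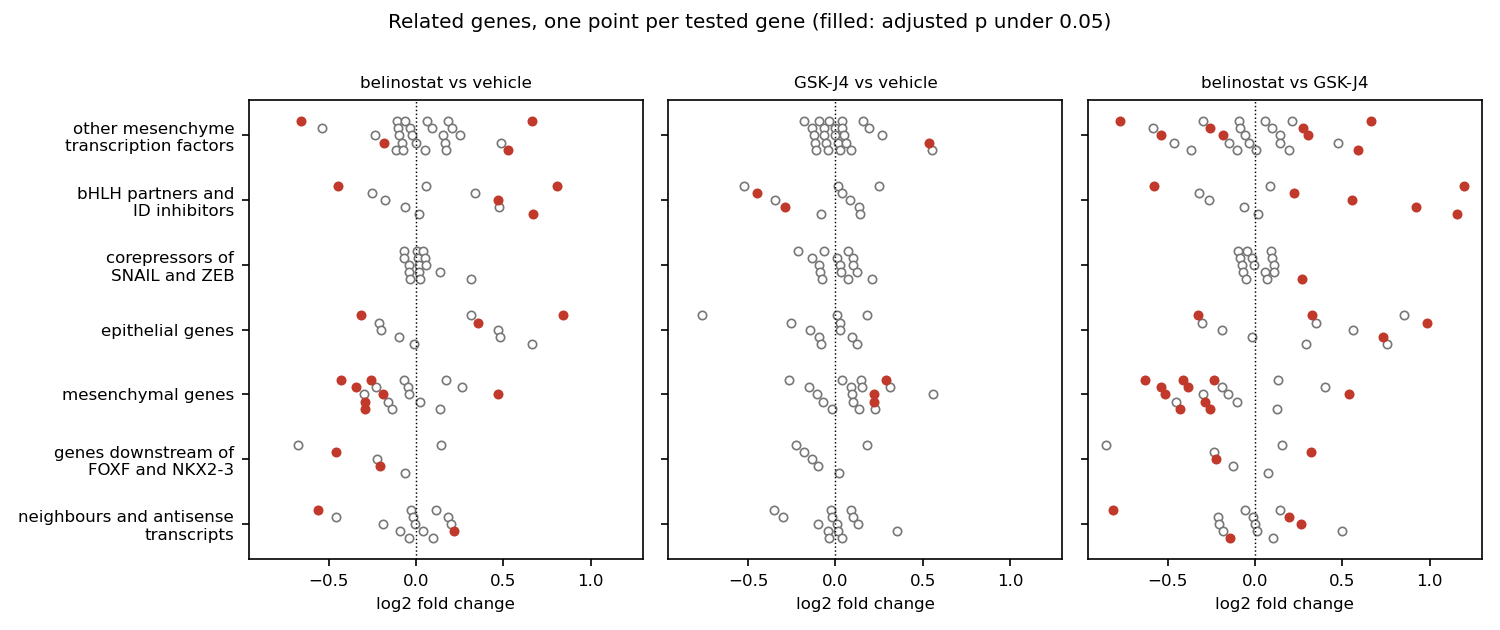
Fitted log2 fold change (horizontal axes) of every tested gene in 7 lists of related genes (vertical axis) for 3 comparisons. Each point is a gene, filled where the DESeq2 adjusted p is under 0.05. In the right panel the filled points of the ID and partner list reach 1.197 on the belinostat side, and 9 of the 10 filled mesenchymal genes lie below 0.

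Genes placed downstream of FOXF factors and NKX2-3 in gut mesenchyme numbered 7. After the pulses WNT5A rose by 0.48 (SE 0.09), from 3749 ± 93.8 to 5229 ± 822 normalized counts, and MYOCD by 0.23 (SE 0.06, called in 9 of 15 alternatives, adjusted p 0.000404 to 0.113). Belinostat against vehicle lowered SRF (-0.20, SE 0.05) and BMP4 (-0.46, SE 0.15, called in 6 of 15 alternatives, adjusted p 0.00901 to 0.3). The BMP4 difference was -0.27 without belinostat replicate 17. With GSK-J4 against vehicle none was called by DESeq2, edgeR or limma voom, and 1 had an unadjusted p under 0.05. Among 18 neighbours and antisense transcripts of the factors, 14 were tested with belinostat against vehicle, and 1 rose, FENDRR, and 1 fell, the deacetylase gene HDAC9 near TWIST1. HDAC9 fell by 0.56 (SE 0.19), from 68.99 ± 8.41 to 46.93 ± 7.42 normalized counts, and was called in 7 of 15 alternatives (adjusted p 0.0279 to 0.179), a call lost without belinostat replicate 17 (adjusted p 0.151).

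The genes whose pattern was most like that of PRRX1 were sought over the 16 libraries, as the root mean square difference between log2 levels centred on each gene's mean. The nearest were CDH13 (0.285), CTXND1 (0.29), SHC3 (0.291), LPAR3 (0.299) and RGS5 (0.3). CDH13 encodes an anchored cadherin, LPAR3 a lysophosphatidic acid receptor and RGS5 a regulator of G-protein signalling used as a pericyte marker. After the pulses CDH13 rose by 0.75 (SE 0.12), LPAR3 by 1.00 (SE 0.17), CTXND1 by 0.98 (SE 0.22) and RGS5 by 0.84 (SE 0.11), and SHC3 had a difference of 0.89 (SE 0.28, adjusted p 0.0765). These genes were picked for their likeness, so their agreement with PRRX1 is a description.

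**Figure D5:**
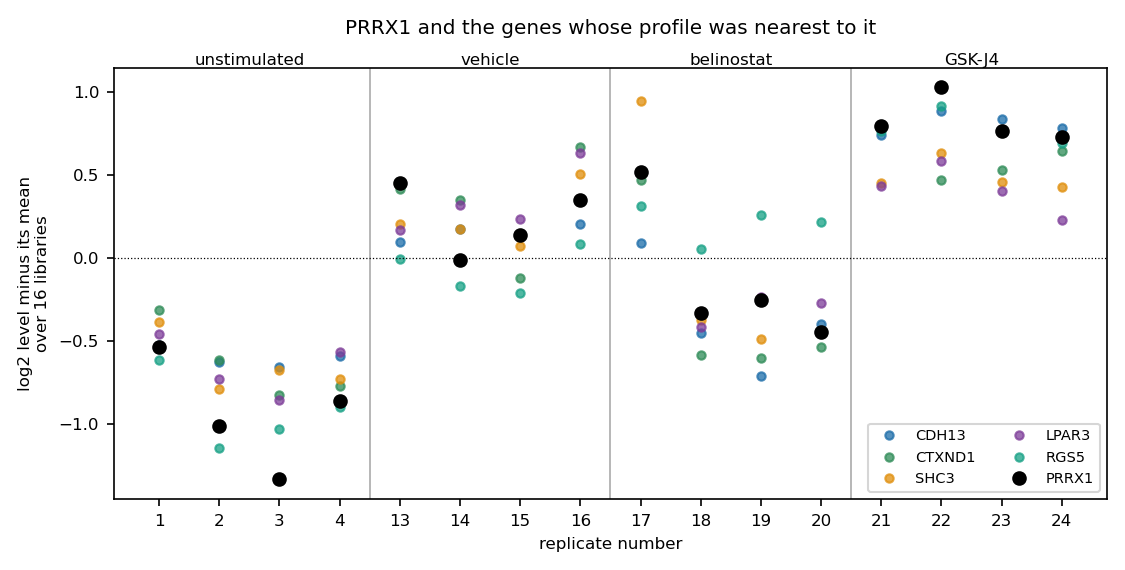
Log2 level minus the gene's own mean over 16 libraries (vertical axis) for PRRX1 (black) and its 5 nearest genes, by library (horizontal axis, replicate numbers within the 4 groups). PRRX1 lies below 0 in all 4 unstimulated libraries and above 0 in all 4 GSK-J4 libraries, and belinostat replicate 17 lies above 0 while the other 3 belinostat libraries lie below.

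The same measure placed CDH11 (0.088), KIAA0930 (0.094), ARNT2 (0.096), SDC4 (0.098) and NR2F2 (0.1) nearest to TWIST1. Nearest to TWIST2 were CABLES1 (0.1), PITX1 (0.1), PBDC1 (0.111), CDKN1C (0.111) and NHSL3 (0.119). These distances are smaller than those around PRRX1, whose own 4 group means span 1.76 on the log2 scale against 0.45 for TWIST1 and 0.50 for TWIST2. These genes too were picked for their likeness over the same libraries.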

How the data were processed

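Libraries were prepared from total RNA with a NEBNext Ultra II RNA kit and sequenced on a NextSeq500. Per the labels, the authors checked reads with FastQC 0.11.9 and MultiQC 1.14 and quantified them with kallisto 0.48.0 at default settings, with hg38 named as the build. For each gene symbol the deposited table gives estimated counts. The transcriptome release and the summing of transcripts to symbols are not given in the sources used here. Of the values, 28.03% had decimals, and they were rounded to whole numbers.

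DESeq2 1.42.0 (R 4.3.3) was run on all 16 libraries in 1 fit with median-of-ratios size factors, default independent filtering and two-sided Wald tests. P-values were adjusted by Benjamini-Hochberg over all genes tested, and a gene was called at an adjusted p under 0.05. Normalized counts were obtained by dividing by the size factors. Groups came from sample titles, and the columns of the unstimulated libraries, which carry the word none in place of DMSO, were matched by replicate number. Alternatives were edgeR 4.0.16, limma 3.58.1 voom on unrounded counts, TMM size factors, a filter of 10 counts in 4 libraries, no independent filtering, a fit of the 8 libraries compared, each library left out and, added after the data were seen, total-count size factors. The fits were also run on simulated counts drawn with the spread estimated from these data. No simulated library stood apart as belinostat replicate 17 does, so that run cannot show how such a library affects the calls.

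The factors and lists were chosen with earlier results of these data known. All factors are named. From each list, at most 3 called genes are named per comparison, those with the largest change among genes averaging 50 or more normalized counts, and 5 nearest genes for the 3 factors with the widest group means. CDH1, DES, FOXP2, MSC and NR2F2 where the text adds them, and the cell markers named beside a result, fall outside this rule and were chosen after their values were seen. Coordinates and transcript lengths come from GENCODE v44 (GRCh38), matched by symbol.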

Additional observations from a re-analysis of the deposited data

Results flagged for a closer look

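In groups of 4 libraries, the gap of the highest or lowest library to the next was compared with the whole range by Dixon's ratio and its 95% critical value. Chance passes it in about 1 of 20 groups, and 2 of the 36 combinations of factor and group did so. PRRX1 in belinostat replicate 17, at 536.5 normalized counts, lay above the other 3 belinostat libraries at 275.1 to 315 (ratio 0.847). That library also stood apart from its group in 6.31% of 11741 genes. Its total of 18.26 M estimated counts was the highest of its group, whose other libraries held 14.42 to 16.74 M (units of 1e6). ZEB1 in GSK-J4 replicate 22, at 4613 normalized counts, lay above the other 3 GSK-J4 libraries at 4115 to 4148 (ratio 0.935). The cause of either was not tested.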

How the results depend on the processing

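No paired analysis was possible because no replicate number is shared between groups. The count of factors called with belinostat against vehicle was 3 and became 1 with edgeR and 1 when only the 8 libraries compared were fitted. With GSK-J4 against vehicle it was 0 and became 1 in that 8-library fit. With GSK-J4 against unstimulated it was 1 and became 2 in the 8-library fit and 2 with total-count size factors, which called NKX2-3 (-0.41, adjusted p 0.0439). Leaving out 1 library gave counts of 1 to 2 for vehicle against unstimulated, 0 to 3 for belinostat against vehicle, 1 to 3 for GSK-J4 against unstimulated and 3 to 5 for belinostat against GSK-J4. Counts over all genes moved too. Vehicle against unstimulated called 282 genes with DESeq2, 166 with edgeR, 168 with voom and 180 without unstimulated replicate 2. GSK-J4 against vehicle called 253, 91 and 105, with 542 in the 8-library fit and 132 to 193 when 1 library was left out. Belinostat against unstimulated called 1461, and 876 in that fit. Where the sign turned, values were near 0 and uncalled. Leaving out 1 library gave log2 differences of -0.036 to 0.044 for ZEB1 and -0.028 to 0.027 for ZEB2 with vehicle against unstimulated, -0.049 to 0.071 for SNAI2 and -0.106 to 0.021 for ZEB2 with belinostat against vehicle, -0.079 to 0.047 for TWIST1, -0.053 to 0.041 for FOXF1, -0.132 to 0.078 for NKX2-3 and 0 to 0.079 for ZEB1 with GSK-J4 against vehicle, -0.109 to 0.017 for ZEB2 with belinostat against unstimulated, -0.078 to 0.032 for TWIST2 with GSK-J4 against unstimulated, and -0.067 to 0.059 for ZEB2 with belinostat against GSK-J4. Total-count size factors gave ZEB1 0.005 and ZEB2 0.002 for vehicle against unstimulated and ZEB2 0.004 for belinostat against GSK-J4, and voom gave FOXF1 0.002 for GSK-J4 against vehicle. The cause was not tested.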
